A study of Mus musculus with 18 samples.

Results

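SHARPIN is a subunit of the linear ubiquitin chain assembly complex (LUBAC), which builds linear ubiquitin chains at activated receptors and thereby helps NF-kB signalling to proceed. The question examined was whether the effect of SHARPIN loss on gene expression differed between consecutive stages of thymocyte maturation. The samples were 12 of the 18 in the series, taken from 3 WT mice and 3 Sharpin mice, each of which gave CD69+ thymocytes of an earlier (MHC I low) and a later (MHC I high) stage. Levels are CPM (reads scaled to the library total), TMM-scaled to even out differences in library composition, and log2 values carry a prior count of 1. The change is the log2 level in MHC I high minus that in MHC I low cells. It was compared between genotypes in a limma model of the group means, in which the mouse was a random block, for all genes with at least 0.5 CPM in 3 samples. Changes of single mice are printed beside the fitted values and were not what this model tested. Of the 27179 genes in the files 13739 passed that limit, and 12798 were tested once predicted or unnamed genes, chromosome Y genes and Xist had been removed.

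The Sharpin mice carried the cpdm mutation, which removes SHARPIN from all cells and not from thymocytes alone, and are called Sharpin cpdm mice here. The study states that this line came on a C57BL/Ka background, was backcrossed to C57BL/6 so few times that its background remained mostly C57BL/Ka, and was analysed before extensive skin disease. The mutation can therefore not be told apart from other alleles of the original strain, nor from effects of SHARPIN loss in other tissues. The WT mice carried neither mutation and were C57BL/6 by the study's account. The labels name no treatment, and mice of both sexes were used. The age of the sequenced mice in particular is not stated in the sources used here. The remaining 6 samples, from Cd4Cre Hoil-floxed mice that delete the HOIL-1 gene in the T-cell lineage, entered the model as further groups and are compared once below.

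CD69 appears on thymocytes once their T-cell receptor (TCR) has been engaged, and surface MHC I increases as positively selected cells mature, so that cells high in MHC I are further along. Double-positive (DP) thymocytes carry CD4 and CD8, rearrange their antigen receptor genes and mostly do not divide. After positive selection they silence the recombinase genes, become CD4 or CD8 single-positive (SP) cells, respond to NF-kB and interferon signals, and a share of them divides before leaving the thymus.

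Totals lay between 11839227 and 16266128 counts per sample (median 14975423.5), and every pair of replicates differed by more than sampling noise (chi-square per degree of freedom 4.21 to 14.8). The genes of the sort were examined first. H2-K1, an MHC I heavy chain, changed by 3.26, 3.23 and 3.16 log2 units in the WT mice and by 3.15, 3.22 and 3.33 in the Sharpin cpdm mice, a difference of 0.01 (SE 0.073, adjusted p = 0.954, limma). Sharpin itself was lower in the mutant early (log2 difference -0.36, adjusted p = 0.000521) and late (-0.29, adjusted p = 0.00209, limma). Its difference in change was 0.07 (adjusted p = 0.706, limma). Cd3e, a chain of the TCR complex, lay between 394 and 544 CPM in the 12 samples, and all 12 genes of the thymocyte identity list were detected in every sample. Xist and the Y-linked Ddx3y showed the female pattern in the 3 WT mice and in Sharpin cpdm mouse 2, and the male pattern in Sharpin cpdm mice 1 and 3.

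The change between fractions differed between genotypes for 400 of 12798 genes (3.13%, limma, adjusted p-value under 0.05, 3 mice per genotype), and genes that pass this test are said to be called. The change was more positive in Sharpin cpdm mice for 281 genes (2.2%) and more negative for 119 (0.93%). The median difference in change was 0.557 log2 units among the former and -0.313 among the latter, against -0.0052 over all genes tested. For 270 of the 281 and 116 of the 119 genes the 3 Sharpin cpdm values lay wholly outside the 3 WT values, and over all genes 10.8% lay wholly above and 11.2% wholly below. Within a genotype, 6956 genes (54.4%) changed between fractions in WT mice and 6991 (54.6%) in Sharpin cpdm mice.

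The number of genes depended on the model. Taking the per-mouse differences literally gave 581 genes, the mouse as a fixed block 634, and edgeR's quasi-likelihood test with the mouse as a fixed block 461. Of the fits without a block, limma's gave 124, DESeq2's 134 and edgeR's 30. With the log2 level of Xist in each fraction as a covariate, which stands in for sex, the count was 58. No WT mouse was male and only 1 Sharpin cpdm mouse was female, so sex and genotype cannot be fully told apart. Without WT mouse 3 the count was 104, and without Sharpin cpdm mouse 3 it was 121.

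The 281 genes with the more positive change fell into 3 patterns. The first comprised 156 genes whose fitted change was positive in both genotypes, with median values of 1.16 in WT and 1.9 in Sharpin cpdm mice. A further 86 genes had a negative change in WT (median -0.249) and a positive one in Sharpin cpdm mice (median 0.225), and 39 had a negative change in both. Of the 281 genes, 264 had a lower fitted level in Sharpin cpdm than in WT MHC I low cells, and 226 had a higher one in MHC I high cells. Among all 12798 genes, 6199 were lower early and 6514 higher late. The difference in change is the late minus the early genotype difference, so choosing genes by it favours this arrangement. Their median genotype difference was -0.35 early and 0.234 late, against 0.00839 and 0.00296 over all genes. The 119 genes of the other direction had a median genotype difference of 0.254 early and -0.0729 late. Within a single fraction, 1565 genes (12.2%) differed between Sharpin cpdm and WT mice in MHC I low cells and 1103 (8.62%) in MHC I high cells. These comparisons share their samples with the difference in change.

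**Figure D1:**
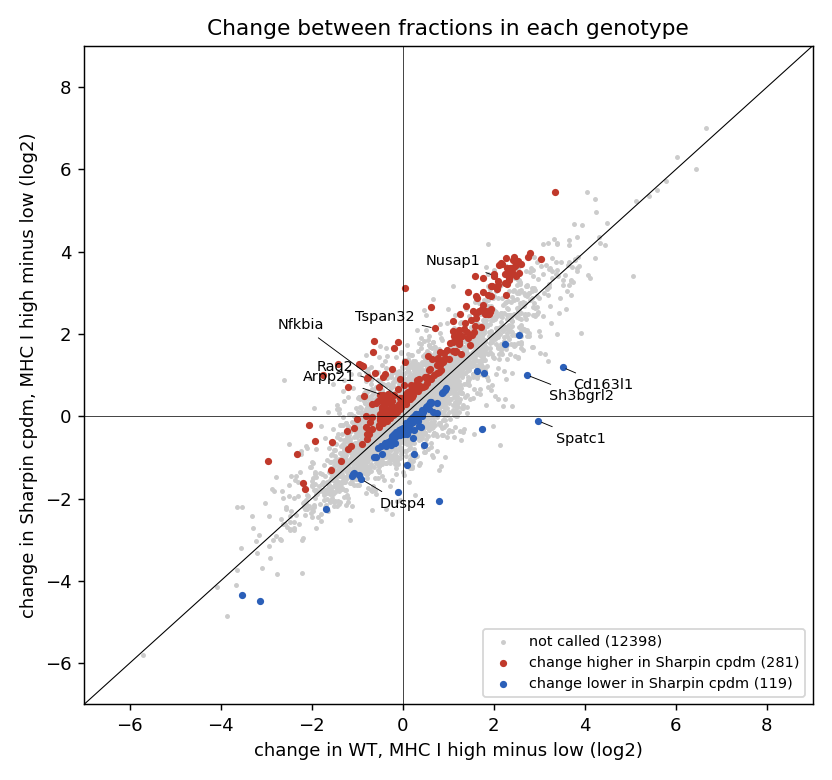
Fitted change between fractions (MHC I high minus MHC I low, log2) in WT mice on the x axis and in Sharpin cpdm mice on the y axis for each of the 12798 genes tested. Red points are the 281 genes with a more positive change in Sharpin cpdm mice, blue points the 119 with a more negative one, grey points the rest, and the diagonal marks equal change; most red points lie in the upper right, where both genotypes have a positive change.

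Genes of mitosis made up the largest group. The list held 58 genes, of which 57 were tested. Of these, 40 (70.2%) had a more positive change in Sharpin cpdm mice and 0 a more negative one, beside 2.2% and 0.93% of all genes. The remaining 17 did not pass the test. All 57 fitted differences were positive, from 0.211 to 1.58 log2 units, with a median of 0.767. The median change over the 57 genes was 2.06, 1.88 and 1.62 in the 3 WT mice and 2.82, 2.71 and 2.75 in the 3 Sharpin cpdm mice, so the genotypes did not overlap. Their summed level, here and below over all listed genes and relative to all counts of a sample, was 1210 to 1380 CPM in WT and 1000 to 1100 CPM in Sharpin cpdm MHC I low cells. In MHC I high cells it was 2760 to 3310 CPM in WT and 3320 to 4350 CPM in Sharpin cpdm mice. The mutant samples were therefore the lowest group at the early stage and the highest at the late stage, with median genotype differences of -0.27 and 0.569. At the early stage 13 of the 57 passed limma's test of the genotype difference as lower in Sharpin cpdm mice and 0 as higher. These stand beside 6.92% and 5.31% of all genes. At the late stage 43 passed as higher and 0 as lower (beside 4.15% and 4.47%). By fitted sign alone, 46 of the 57 were lower early and 56 higher late. In these bulk samples fewer dividing cells and less of these transcripts per dividing cell cannot be told apart. The number called was 16 with Xist as a covariate, 15 without WT mouse 3, 30 without sample weights and 49 with the mouse as a fixed block. It was 24 in limma without the block, 23 in DESeq2 without a block and 5 in edgeR's test without a block. The median difference stayed between 0.734 and 0.99 in all 22 alternatives.

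Nusap1 (Entrez Gene 108907, chromosome 2, 119618298 to 119650165 of GRCm38, the mm10 build) encodes a protein that binds spindle microtubules. It lay at 6.91, 7.29 and 8.53 CPM in the WT and at 4.06, 4.30 and 5.35 CPM in the Sharpin cpdm MHC I low samples. In MHC I high cells it lay at 34.8, 31.1 and 28.7 CPM in WT and at 39.8, 50.7 and 53.6 CPM in Sharpin cpdm mice. The groups did not overlap in either fraction, and their order was opposite in the 2 fractions. The change was 2.32, 2.08 and 1.74 in the WT and 3.27, 3.53 and 3.31 in the Sharpin cpdm mice, a difference of 1.41 (SE 0.17, adjusted p = 5.03e-05, limma).

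Ccnb2 (chromosome 9, 70407689 to 70421554), the mitotic cyclin B2, averaged 4.67 ± 0.111 CPM in WT and 3.08 ± 0.364 CPM in Sharpin cpdm MHC I low cells (SD, n = 3), and 18.5 ± 1.03 against 27.9 ± 4.09 CPM in MHC I high cells. Its change was 2.00, 2.01 and 1.90 in WT and 3.09, 3.18 and 3.17 in Sharpin cpdm mice, a difference of 1.23 (SE 0.164, adjusted p = 5.06e-05, limma). The 3 mice of a genotype lay close together and the genotypes did not overlap. Foxm1, a transcription factor of late cell-cycle genes, differed by 0.77 (SE 0.117, adjusted p = 0.00052, limma). Nusap1, Ccnb2 and Foxm1 were called in all 22 alternatives. Kif4, a chromosome-bound motor protein, differed by 1.56 (adjusted p = 0.000526, limma) and was lost in edgeR's test without a block.

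The genes named next were picked after their values were seen, to show the steps of mitosis that the list covers. Among the kinases and their partners, Aurkb, the kinase of the chromosomal passenger complex, differed by 1.58 (adjusted p = 0.000762), its partner Birc5 by 1.19 (adjusted p = 0.000541), and Cdk1, the kinase that starts mitosis, by 1.00 (adjusted p = 0.0389, limma). Of the checkpoint and kinetochore genes Bub1 differed by 1.37 (adjusted p = 0.0129) and Nuf2 by 1.19 (adjusted p = 0.00573, limma). Of the chromosome genes Top2a, which untangles DNA, differed by 1.03 (adjusted p = 0.00996), and Mki67, the proliferation antigen Ki-67, by 1.31 (adjusted p = 0.00431, limma). Prc1 and Kif11, which build the spindle, differed by 0.87 (adjusted p = 0.00686) and 0.80 (adjusted p = 0.00242, limma). Ccnb1, cyclin B1, and Plk1, a mitotic kinase, had values of 1.05 and 0.69 that did not pass the test (adjusted p = 0.0917 and 0.0622, limma).

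Because these genes moved together, the promoters of those 3 called members with the smallest p-values that the RefSeq table (GRCm38.p6) holds are shown. Each sequence is the 250 bases before the annotated start, written 5′ to 3′ on the strand of the gene, and capitals mark CCAAT, which reads ATTGG on the opposite strand, and TTTGAA, which reads TTCAAA there. Both are known from promoters of cell-cycle genes. Nusap1 is at chr2:119618048-119618297 (plus strand), Ccnb2 at chr9:70421555-70421804 (minus strand) and Kif4 at chrX:100625815-100626064 (plus strand).
Nusap1: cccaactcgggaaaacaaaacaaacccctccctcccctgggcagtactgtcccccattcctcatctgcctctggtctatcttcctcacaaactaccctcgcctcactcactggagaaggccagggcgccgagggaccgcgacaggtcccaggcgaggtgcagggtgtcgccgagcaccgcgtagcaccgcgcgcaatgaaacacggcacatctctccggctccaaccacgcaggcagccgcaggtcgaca
Ccnb2: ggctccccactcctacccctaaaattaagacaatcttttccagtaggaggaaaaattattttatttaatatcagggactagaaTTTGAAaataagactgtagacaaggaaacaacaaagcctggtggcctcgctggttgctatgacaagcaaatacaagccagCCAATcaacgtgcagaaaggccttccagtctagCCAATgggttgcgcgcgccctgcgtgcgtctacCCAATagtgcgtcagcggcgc
Kif4: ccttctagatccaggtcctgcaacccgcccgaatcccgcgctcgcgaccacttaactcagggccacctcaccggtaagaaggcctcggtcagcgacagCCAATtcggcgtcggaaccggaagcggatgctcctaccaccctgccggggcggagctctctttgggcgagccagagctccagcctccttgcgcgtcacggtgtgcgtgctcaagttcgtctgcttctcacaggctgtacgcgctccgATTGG
Ccnb2 held 3 copies of CCAAT and 1 of TTTGAA, Kif4 held 2 of CCAAT and 0 of TTTGAA, and Nusap1 held neither. No copies overlapped. A promoter was in the table for 9985 of the 12798 genes tested and 33 of the 40 mitosis genes called. CCAAT on either strand was present in 66.7% of the 33 and in 37.0% of all 9985, TTTGAA in 42.4% and 10.5%, and both in 36.4% and 4.2%. Over the whole list the shares were 68.8%, 37.5% and 31.2% of 48 promoters. A match is a description of these letters and not a site of binding.

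**Figure D2:**
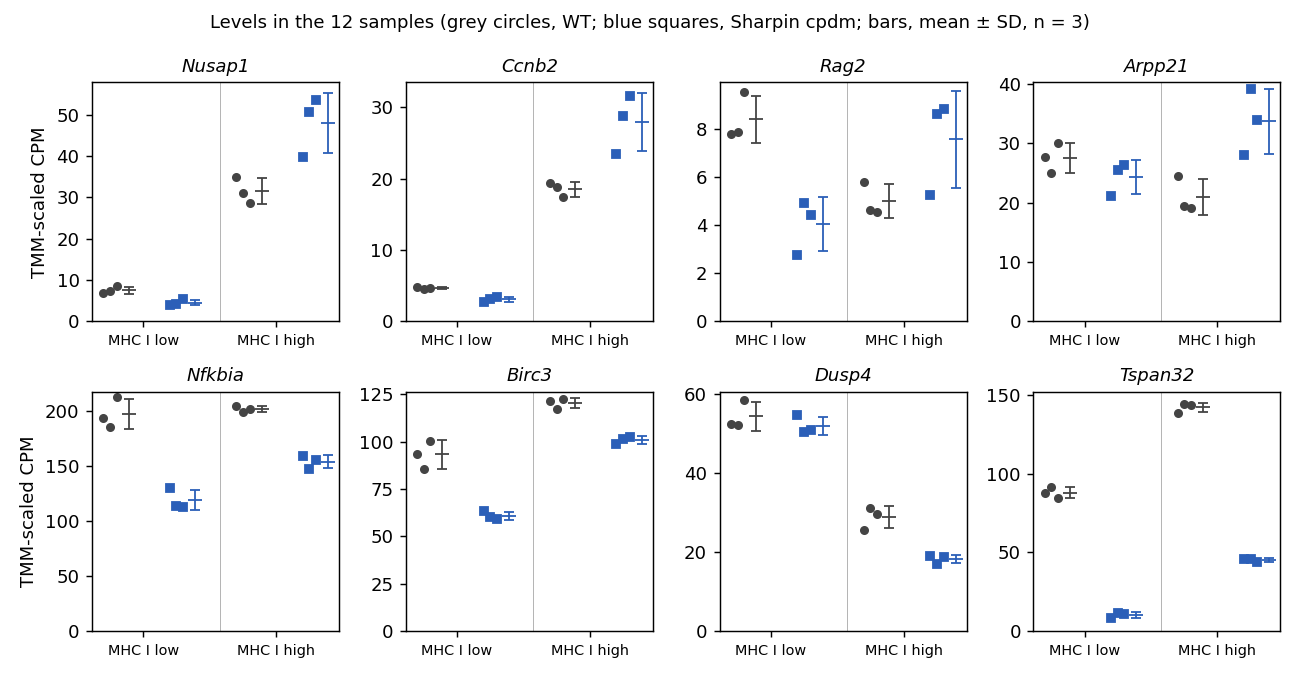
Level (TMM-scaled CPM, axes from 0) of 8 genes in the 3 WT (grey circles) and 3 Sharpin cpdm mice (blue squares) in both fractions, with bars for mean ± SD. Nusap1 and Ccnb2 are lower in Sharpin cpdm mice at the early stage and higher at the late stage, Nfkbia and Birc3 are lower at both with a narrower gap at the late stage, and Dusp4 overlaps between genotypes at the early stage but not at the late stage.

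Genes of DNA replication differed less. Of 55 tested, 9 (16.4%) had a more positive change in Sharpin cpdm mice and 0 a more negative one, beside 2.2% and 0.93% of all genes, and the other 46 did not pass the test. The median difference over the list was 0.196, and the median change was 0.987, 0.938 and 0.855 in the WT and 1.04, 1.13 and 1.14 in the Sharpin cpdm mice. Unlike the mitosis list, its median genotype difference was already above 0 in MHC I low cells (0.0649) and was 0.322 in MHC I high cells. Slbp, which binds histone mRNA, changed by 0.54, 0.68 and 0.59 in WT and by 1.16, 1.10 and 1.10 in Sharpin cpdm mice, a difference of 0.55 (SE 0.0881, adjusted p = 0.000541, limma). Rrm2, a subunit of ribonucleotide reductase, differed by 1.01 (adjusted p = 0.00253), Clspn, an adaptor of the replication checkpoint, by 0.79 (adjusted p = 0.00821), and the transcription factor E2f2 by 0.46 (adjusted p = 0.0168, limma). The minichromosome maintenance genes Mcm2 to Mcm7, which form the replicative helicase, did not pass the test. The count was 2 without WT mouse 3 and 2 without Sharpin cpdm mouse 2. It was 4 with Xist as a covariate, 3 without sample weights and 14 with at least 10 counts in every sample. Without a block, limma called 3, DESeq2 2 and edgeR's test 1.

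Genes typical of DP thymocytes formed a second group. Of 25 tested, 7 (28%) had a more positive change in Sharpin cpdm mice, among them Rag1, Rag2, Arpp21, Cd8a, Myb and Themis, and 0 a more negative one, beside 2.2% and 0.93% of all genes. The median difference over the list was 0.216, with median changes of -0.281, -0.274 and -0.334 in the WT and -0.208, -0.032 and -0.0466 in the Sharpin cpdm mice. The summed level of the list did not separate the changes of the genotypes. It was 10000 to 10600 CPM in WT and 10600 to 11100 CPM in Sharpin cpdm MHC I low cells, and 6500 to 7060 against 7160 to 7500 CPM in MHC I high cells. The log2 change of that sum was -0.70, -0.51 and -0.55 in the WT and -0.59, -0.57 and -0.55 in the Sharpin cpdm mice, so the genotypes overlapped.

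Rag2 (chromosome 2, 101624712 to 101632528), a subunit of the recombinase that joins antigen receptor segments, lay at 7.81, 7.87 and 9.54 CPM in WT and at 2.77, 4.91 and 4.43 CPM in Sharpin cpdm MHC I low cells. In MHC I high cells it lay at 5.82, 4.64 and 4.55 CPM in WT and at 5.25, 8.64 and 8.85 CPM in Sharpin cpdm mice. The groups were separate at the early stage and overlapped at the late stage through Sharpin cpdm mouse 1. Rag2 fell between fractions in WT (change -0.78) and rose in Sharpin cpdm mice (0.92), with per-mouse changes of -0.42, -0.75 and -1.06 against 0.90, 0.81 and 0.99 and a difference of 1.70 (SE 0.256, adjusted p = 0.000526, limma). The neighbouring Rag1 (101638252 to 101649532), the catalytic subunit, averaged 163.3 ± 7.95 CPM in WT and 121.0 ± 10.8 CPM in Sharpin cpdm MHC I low cells and 84.7 ± 8.21 against 113.5 ± 22.1 CPM in MHC I high cells. Rag1 fell in WT mice (change -0.997, adjusted p = 1.94e-05), while its change in Sharpin cpdm mice was -0.08 (adjusted p = 0.65), and the difference was 0.92 (SE 0.187, adjusted p = 0.0201, limma).

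Arpp21 (chromosome 9, 112065091 to 112236288), an RNA-binding phosphoprotein, changed by -0.18, -0.36 and -0.65 in WT and by 0.41, 0.62 and 0.36 in Sharpin cpdm mice, a difference of 0.95 (SE 0.14, adjusted p = 0.000526, limma). It was called in all 22 alternatives, as was Rag2. Cd8a, the CD8 alpha chain, rose in both and by more in Sharpin cpdm mice (difference 0.44, adjusted p = 0.00399, limma). Myb, a transcription factor of immature thymocytes, and Themis, an adaptor of TCR signalling, differed by 0.27 (adjusted p = 0.0285) and 0.24 (adjusted p = 0.0488, limma), and Themis kept its call in 4 of the 22 alternatives. Cd4, Bcl6, Ccr9 and Cd24a were among the 18 members that did not pass the test. The number of members called was 3 without WT mouse 3 and 2 without Sharpin cpdm mouse 2.

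NF-kB genes were the third group. Of 45 subunits, inhibitors and target genes tested, 9 (20%) had a more positive change in Sharpin cpdm mice, 0 a more negative one (beside 2.2% and 0.93% of all genes) and 36 did not pass the test, with a median difference of 0.188. The list stood below WT in both fractions, with a median genotype difference of -0.275 early and -0.182 late. Of its 45 members 25 passed limma's test of the genotype difference as lower in Sharpin cpdm MHC I low cells and 4 as higher. These stand beside 6.92% and 5.31% of all genes. At the late stage 18 passed as lower and 4 as higher (beside 4.47% and 4.15%). By fitted sign alone, 37 of the 45 were lower early and 36 lower late. The summed level was 4500 to 4720 CPM in WT and 3860 to 4260 CPM in Sharpin cpdm mice at the early stage, and 5250 to 5650 against 4770 to 5190 CPM at the late stage. The list was thus below WT at each stage without overlap, while the log2 change of the sum overlapped between genotypes (0.21, 0.33 and 0.18 in WT and 0.28, 0.38 and 0.30 in Sharpin cpdm mice).

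Nfkbia (chromosome 12, 55489409 to 55492647), the inhibitor IκBα and itself a target of NF-kB, lay at 194, 185 and 212 CPM in WT and at 130, 114 and 113 CPM in Sharpin cpdm MHC I low cells. In MHC I high cells it lay at 204, 199 and 202 CPM in WT and at 159, 147 and 156 CPM in Sharpin cpdm mice. The mutant was lower in both fractions (-0.73, adjusted p = 2.14e-10, and -0.40, adjusted p = 4.37e-06), and the difference in change was 0.33 (SE 0.0694, adjusted p = 0.00676, limma). Birc3 (chromosome 9, 7847468 to 7873205), the ubiquitin ligase cIAP2, had the same arrangement, with genotype differences of -0.62 and -0.26 and a difference in change of 0.36 (SE 0.075, adjusted p = 0.0071, limma). Traf1, an adaptor of TNF receptors, differed by 0.48 (adjusted p = 0.0183), the kinase gene Pim1 by 0.46 (adjusted p = 0.0141), Map3k8, the kinase Tpl2, by 0.71 (adjusted p = 0.0226) and Rel, the subunit c-Rel, by 0.38 (adjusted p = 0.0274, limma). Nfkb2, Ltb and Nfkbie, encoding the p100 subunit, lymphotoxin beta and an inhibitor, were called with 0.25, 0.25 and 0.38. The changes of single mice overlapped between genotypes for Nfkbie, which kept its call in 8 of the 22 alternatives. Tnfaip3, the ubiquitin editor A20, changed by -0.71, -0.57 and -0.81 in WT and by -0.55, -0.40 and -0.40 in Sharpin cpdm mice, and its 0.25 did not pass the test (adjusted p = 0.0557, limma). Relb, Il2ra, Gadd45b and Tnfrsf4 had differences of 0.21, 0.26, 0.24 and -0.08, none past the threshold. None of the 45 members was called with Xist as a covariate, with edgeR's test without a block, without WT mouse 3 or without Sharpin cpdm mouse 3. Without a block, limma called 2 and DESeq2 1. Without sample weights 4 were called. With at least 10 counts in every sample 12 had a more positive and 2 a more negative change.

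**Figure D3:**
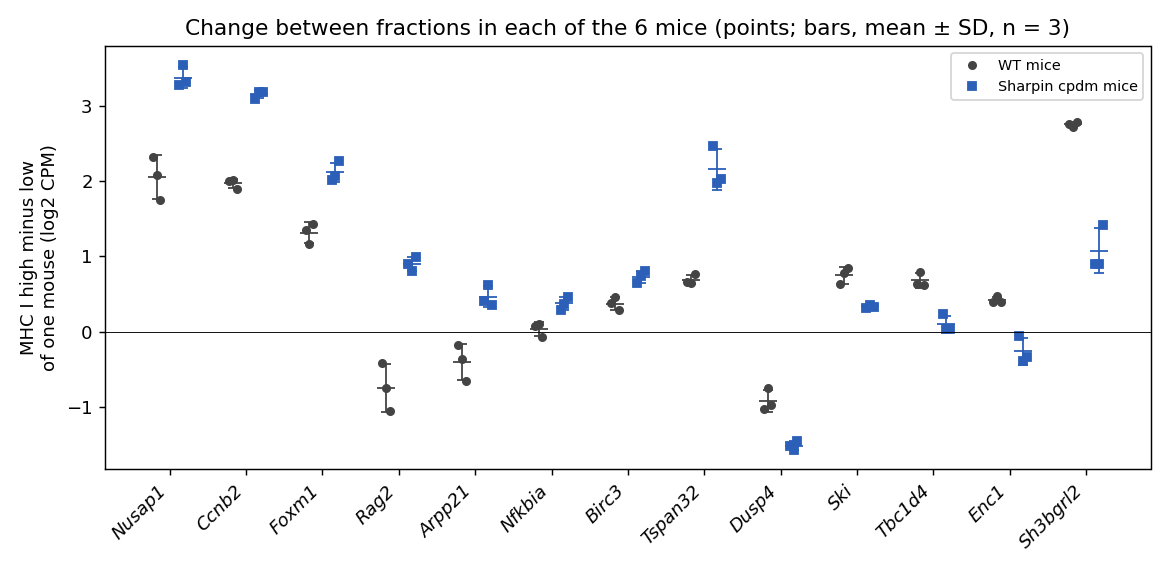
Change between fractions of each mouse (MHC I high minus MHC I low, log2 CPM) for 13 genes in 3 WT (grey circles) and 3 Sharpin cpdm mice (blue squares), with bars for mean ± SD. In each of the 13 genes the 3 values of one genotype lie wholly to one side of the other's, which the rule that picked most of them required. Rag2 and Arpp21 lie below 0 in WT mice and above it in Sharpin cpdm mice.

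Outside these groups, Tspan32 (Entrez Gene 27027, chromosome 7, 143004907 to 143019486), a tetraspanin of blood cells, had the smallest p-value. It lay at 87.7, 91.6 and 84.4 CPM in WT and at 8.18, 11.6 and 10.7 CPM in Sharpin cpdm MHC I low cells. In MHC I high cells it lay at 138, 144 and 144 CPM in WT and at 45.5, 45.7 and 43.8 CPM in Sharpin cpdm mice. The mutant was far lower in both fractions (-3.10 and -1.66), and the difference in change was 1.44 (SE 0.0994, adjusted p = 1.31e-10, limma). Kansl1l (chromosome 1, 66719243 to 66817596) fell between fractions in WT mice, with changes of -0.60, -0.72 and -0.74, while the Sharpin cpdm mice gave -0.07, -0.05 and 0.09 (difference 0.66, adjusted p = 5.06e-05, limma). Gramd3, which encodes a lipid-binding GRAM domain protein, rose in both (difference 0.87, adjusted p = 5.06e-05), and Tbrg3 had changes of -0.69, -1.57 and -1.41 in WT against 0.78, 0.74 and 0.58 (difference 1.92, adjusted p = 0.000526, limma).

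Among the 119 genes with a more negative change in Sharpin cpdm mice, 52 had a negative fitted change in both genotypes, 28 a positive one in both, and 39 a positive change in WT and a negative one in Sharpin cpdm mice. Dusp4 (chromosome 8, 34807610 to 34819894), a phosphatase that inactivates MAP kinases, lay at 52.4, 52.3 and 58.6 CPM in WT and at 54.7, 50.4 and 51.0 CPM in Sharpin cpdm MHC I low cells. In MHC I high cells it lay at 25.7, 31.1 and 29.7 CPM in WT and at 19.1, 17 and 18.6 CPM in Sharpin cpdm mice. The genotypes overlapped at the early stage and were separate at the late stage. Dusp4 fell in both genotypes and by more in Sharpin cpdm mice, with changes of -1.02, -0.75 and -0.98 against -1.52, -1.57 and -1.45 and a difference of -0.61 (SE 0.101, adjusted p = 0.000739, limma). Map2k2, the MAP kinase kinase MEK2, also differed (-0.36, SE 0.0686, adjusted p = 0.00303, limma), with changes of -0.07, 0.02 and -0.05 in WT and -0.46, -0.28 and -0.54 in Sharpin cpdm mice.

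Ski (chromosome 4, 155154075 to 155222535), a repressor of TGF-beta signalling, rose in both genotypes and by less in Sharpin cpdm mice, with changes of 0.63, 0.77 and 0.85 against 0.32, 0.36 and 0.33 (difference -0.42, SE 0.0712, adjusted p = 0.000913, limma). Tbc1d4, a regulator of glucose transporter traffic, changed by 0.63, 0.80 and 0.62 in WT and by 0.23, 0.03 and 0.04 in Sharpin cpdm mice (difference -0.57, adjusted p = 0.00184, limma). Tspan9, a tetraspanin, had a difference of -0.49 (adjusted p = 0.00515, limma), and Ahcyl2, a relative of the enzyme that hydrolyses S-adenosylhomocysteine, one of -0.31 (adjusted p = 0.00391, limma). For Ski, Tbc1d4, Tspan9 and Ahcyl2 the genotype difference did not pass the test in MHC I low cells and was negative in MHC I high cells (-0.28, -0.41, -0.65 and -0.33, each past the threshold).

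Enc1, an actin-binding Kelch protein, showed the other arrangement. It averaged 62.0 ± 2.02 CPM in WT and 128.7 ± 17.5 CPM in Sharpin cpdm MHC I low cells, and 83.1 ± 3.24 against 106.8 ± 4.34 CPM in MHC I high cells, with a difference in change of -0.67 (SE 0.111, adjusted p = 0.00184, limma). Frat1, a binding partner of the kinase GSK3, and Ptms, parathymosin, were likewise higher in Sharpin cpdm MHC I low cells (0.61 and 0.36), with differences in change of -0.52 (adjusted p = 0.00266) and -0.49 (adjusted p = 0.00368, limma). Sh3bgrl2 was rare, at 0.469 to 0.576 CPM in WT and 0.837 to 1.69 CPM in Sharpin cpdm MHC I low cells, and its difference was -1.73 (SE 0.299, adjusted p = 0.00121, limma).

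The other lists of genes by function or cell type held at most 3 called members each, and all their counts stand beside 2.2% of all genes with a more positive and 0.93% with a more negative change (3.13% in all). Of 61 interferon response genes 0 had a more positive and 1, Ifi27l2a, a more negative change (-0.58, adjusted p = 0.0373, limma), and the list's median difference was -0.131 with 13 positive values. In 27 of the 61 the Sharpin cpdm mice lay wholly below the WT mice, beside 11.2% of all genes, and the mouse as a fixed block called 14 of the 61. The median change of the list was 1.28, 1.38 and 1.35 in the WT and 1.22, 1.15 and 1.21 in the Sharpin cpdm mice. The regulators Irf7, Irf9 and Irf1 had differences of -0.25, -0.14 and 0.15, none past the threshold. Of 24 MHC I presentation genes 0 were called (median -0.0841), and 2 had a more negative change with the mouse as a fixed block. The median change of that list was 0.958, 0.921 and 0.914 in the WT and 0.786, 0.826 and 0.845 in the Sharpin cpdm mice, without overlap.

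Of 25 glycolysis genes 2 (8%) had a more negative change, Hk1, which phosphorylates glucose (-0.28, adjusted p = 0.0148), and Ldhb, a lactate dehydrogenase subunit (-0.30, adjusted p = 0.0457, limma), and the median was -0.169. Of 40 ribosome biogenesis genes 2 (5%), Gnl3 and Nop56, both nucleolar, had a more positive change (0.39 and 0.29), and of 79 cytosolic ribosomal protein genes 0 had a more positive and 1 (1.27%) a more negative change. Of 75 respiratory chain genes 1 (1.33%), Ndufc2, was called (-0.36), and of 33 sterol and fatty acid synthesis genes 0 were. The Sharpin cpdm mice lay wholly below the WT mice in 10 glycolysis, 24 ribosomal protein and 16 respiratory chain genes, and wholly above in 0. In 14 ribosome biogenesis genes they lay wholly above and in 1 wholly below (beside 10.8% and 11.2% of all genes). Median differences were -0.129 for ribosomal proteins, -0.0795 for the respiratory chain and 0.102 for ribosome biogenesis. The mouse as a fixed block called 4 glycolysis and 3 ribosomal protein genes with a more negative change.

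Among T-cell genes, 1 of 38 genes of mature SP cells was called, the survival gene Bcl2 (-0.26, adjusted p = 0.021, limma). The mouse as a fixed block called 4 of the 38 with a more negative and 1 with a more positive change, and per-mouse differences called 5 and 0. The median change of the list was 1.13, 1.27 and 1.21 in the WT and 1.06, 1.02 and 0.937 in the Sharpin cpdm mice, without overlap, and in 13 of the 38 the Sharpin cpdm mice lay wholly below the WT mice (beside 11.2% of all genes). Of 32 genes induced by TCR signals 3 (9.38%) were called: Bcl2l11, the death factor Bim, and Myb had a more positive change (0.27 each) and Pdcd1, the receptor PD-1, a more negative one (-0.32, with overlapping mice). Cd8a, Myb and Lef1 (-0.29), a transcription factor of CD4 and CD8 cells, were called among 21 genes of lineage choice (14.3%), and Coro1a (-0.24) and Gnai2 (-0.26), which serve cell migration, among 27 of egress (7.41%). Pim1 was the 1 of 31 cytokine genes called. Of 19 regulatory T-cell genes 0 were called, as were 0 of 11 genes of LUBAC and its editors. The regulatory T-cell list summed to 1370 to 1580 CPM in WT and 1110 to 1140 CPM in Sharpin cpdm MHC I low cells. In MHC I high cells it summed to 1280 to 1410 against 1100 to 1210 CPM. The log2 change of that sum was -0.11, -0.07 and -0.16 in WT and -0.01, 0.08 and 0.06 in Sharpin cpdm mice. The median change over its members was 0.336, 0.341 and 0.264 against 0.246, 0.235 and 0.0377, so sum and median went opposite ways. Of 34 genes of cell death Bcl2l11, Fasl (1.66) and Bcl2 were called (8.82%). Fasl was rare, at 0.203 to 2.19 CPM in the 12 samples, and kept its call in 5 of the 20 alternatives that tested it. Bcl2 and Bcl2l11 kept theirs in 11 and 10 of 22. Cd3e (-0.29) and Themis were called among 12 thymocyte identity genes (16.7%). The IL-7 receptor gene Il7r, the IL-2 receptor gene Il2rb, the cytokine inhibitor Cish, Myc and Cxcr4 had differences of -0.01, 0.04, -0.02, 0.31 and 0.38, none past the threshold.

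**Figure D4:**
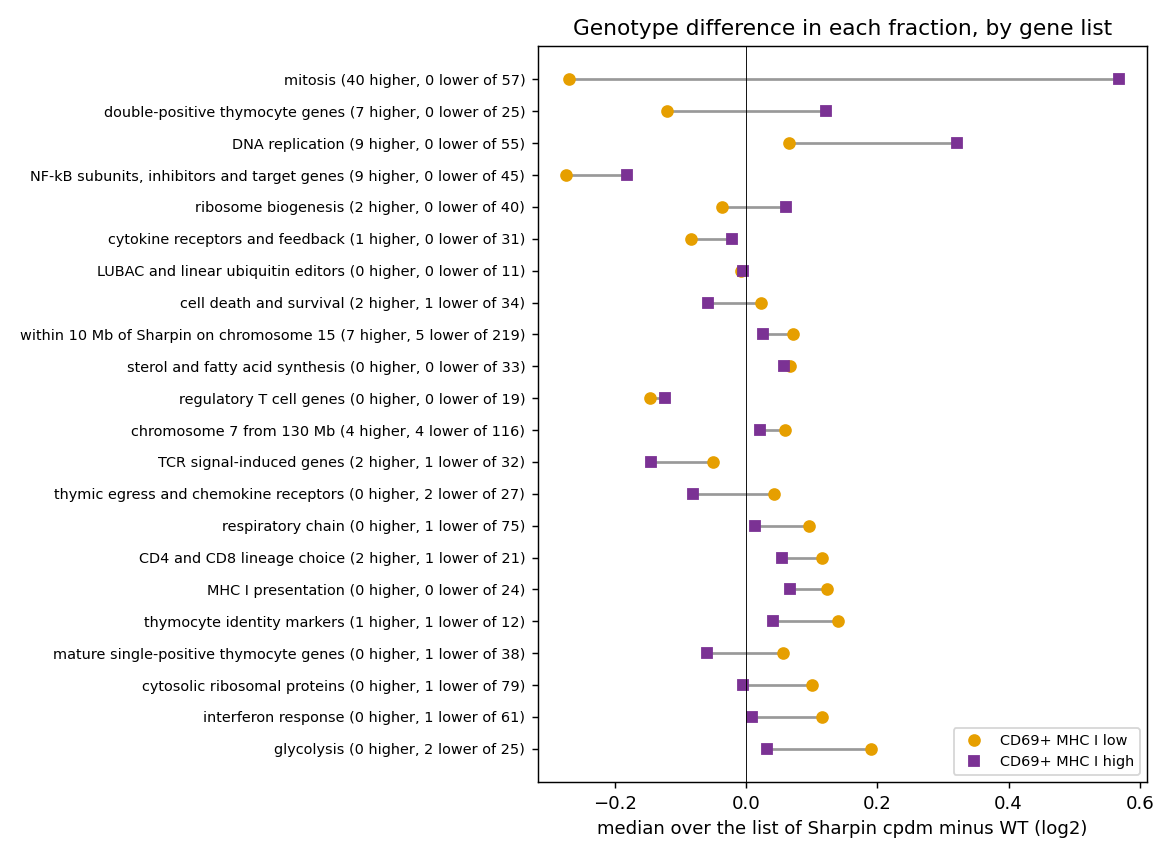
Median over each gene list of the fitted difference Sharpin cpdm minus WT (log2) in MHC I low (orange circles) and MHC I high cells (purple squares), for lists with at least 10 genes tested, ordered by the median difference in change; counts beside each name are the members called. The mitosis list runs from -0.27 to 0.569, the longest line, and the NF-kB list stays below 0 in both fractions.

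Markers of other cells were examined last. By the study's methods the sort excluded cells stained for gamma-delta TCR, NK1.1, Mac-1, Gr1, MHC II, B220, CD44 or CD25. Of 21 myeloid and dendritic marker genes listed, the neutrophil genes S100a8 and S100a9 and the dendritic cell gene Clec9a were at 0 in all 12 samples and 8 were detected in all 12, with Cd74 at 8.56 to 39.3 CPM and Itgam at 1.9 to 8.01 CPM. Of 13 innate-like and gamma-delta T-cell markers the NK cell gene Ncr1 was at 0 in all 12 samples and 6 were detected in all 12, among them Nkg7, a granule protein, at 0.848 to 49 CPM. Of the 10 B-cell and 10 epithelial markers 4 each were detected in all 12 samples and 0 were at 0 in all. Of 4 B-cell, 7 myeloid and dendritic, 4 thymic epithelial and 1 erythroid marker genes tested, 0 were called. Their summed levels in the 4 groups together spanned 5.41 to 7.1 CPM for B cells, 10.8 to 18 CPM for epithelium and 0.338 to 1.63 CPM for erythroid cells. The myeloid and dendritic sum, mostly Cd74, was 22.2 to 25.5 CPM in WT and 13.5 to 18.8 CPM in Sharpin cpdm MHC I low cells, and 36.1 to 48.4 against 27.6 to 33.6 CPM in MHC I high cells. Of 8 markers of innate-like and gamma-delta T cells 1 was called, Gzma, a granule protease (1.81, adjusted p = 0.0033, limma). It lay at 0.335 to 0.947 CPM in Sharpin cpdm MHC I low and 4.99 to 9.47 CPM in MHC I high cells, against 1.41 to 1.88 and 4.28 to 5.24 CPM in WT. The summed level of this list was higher in Sharpin cpdm mice at both stages, without overlap. It was 37.6 to 52.6 against 26.2 to 35.8 CPM early and 84.3 to 98.8 against 75.4 to 84.1 CPM late. The log2 change of that sum overlapped (1.21, 1.53 and 1.52 in WT and 1.16, 1.38 and 0.91 in Sharpin cpdm mice). The part of such other cell types in the results was not tested.

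Since the cpdm line came from another substrain, genes near the mutation and at the end of chromosome 7, where Tspan32 lies, were counted separately. Within 10 Mb of Sharpin on chromosome 15, 7 of 219 genes had a more positive and 5 a more negative change (5.48% in all, beside 3.13% of all genes), among them Tbrg3, Apobec3 (0.37), a deaminase that restricts retroviruses, and the GTPase gene Rac2 (-0.29). On chromosome 7 from 130 Mb, 4 of 116 genes had a more positive and 4 a more negative change (6.9%), Tspan32 and Mki67 among the former. This stretch was chosen with earlier results of these data known, and its share includes Tspan32 itself. Within single fractions 20 of the 116 passed limma's test as higher and 16 as lower in Sharpin cpdm MHC I low cells. These stand beside 5.31% and 6.92% of all genes. In MHC I high cells 17 passed as higher and 16 as lower (beside 4.15% and 4.47%). Cd163l1 there had 0 counts in all 3 Sharpin cpdm MHC I low samples and at most 0.127 CPM in MHC I high samples, against 0.320 to 0.469 and 3.14 to 7.11 CPM in WT.

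The Sharpin cpdm change was also set against that of Hoil mice, a comparison chosen after the data were seen. It differed for 103 genes (0.805%), 50 in the positive direction (0.391%) and 53 in the negative (0.414%). Ddx3y showed the male pattern in Hoil mice 1 and 2 and the female pattern in Hoil mouse 3. Xist followed it, apart from 63.7 CPM in the MHC I high cells of Hoil mouse 2. All WT mice were female, so for Hoil mice too sex and genotype cannot be fully told apart against WT. The median change of the 57 mitosis genes was 1.83 in WT, 2.24 in Hoil and 2.61 in Sharpin cpdm mice. Of the 57, 5 had a more positive change in Sharpin cpdm than in Hoil mice. That number was 3 with Xist as a covariate, 2 without Sharpin cpdm mouse 1, and 1 without mouse 2, without mouse 3 or without the block. Rag2 had changes of -0.78, 0.09 and 0.92 in the 3 genotypes and Nusap1 of 2.01, 2.68 and 3.42, but neither differed between the mutants past the threshold (adjusted p = 0.152 and 0.057, limma). Tspan32 did (1.57, adjusted p = 2.24e-10), with a change of 0.57 in Hoil mice, as did Bcl2 (-0.49, adjusted p = 0.000291, limma). The count of 103 genes was 47, 28 and 18 without Sharpin cpdm mouse 1, 2 or 3, and 31 with Xist as a covariate. It was 13 without the block, 25 without a filter on low counts and 177 with at least 10 counts in every sample.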

How the data were processed

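RNA of sorted thymocytes was sequenced by the authors as 75-base single-end reads. Alignment to mm10 used Rsubread, genes were counted by featureCounts on its built-in RefSeq models, and the deposited values are raw counts, 1 sample per library, unnormalized. Tool versions and the settings for strand and for reads with several matches are not given in the sources used here, so near-identical, overlapping and antisense genes are uncertain. The table of the whole series was not used. Symbols and coordinates came from RefSeq GRCm38.p6 by Entrez ID for 25275 of 27179 genes, and the other 1904 held 0.655% of the counts. Genes needed 0.5 CPM in 3 samples. Chromosome Y genes, Xist and 936 predicted or unnamed genes were removed.

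Following the study's methods, log2 CPM (TMM scaling, prior count 1) of all 18 samples entered 1 limma model of 6 group means. It had sample weights, the mouse as a random block (correlation 0.224) and robust trended empirical Bayes. The weights were 0.6421 to 2.423 in the 12 samples. The highest was that of WT mouse 3 in MHC I high cells, beside 0.9629 and 0.6421 for WT mice 1 and 2. The difference in change was a contrast of 4 groups. Adjusted p-values are Benjamini-Hochberg over the 12798 genes, and genes under 0.05 are the ones called. Both fractions of a mouse come from 1 animal, and across genes the residuals of its fractions correlated at 0.0702 to 0.256. Software was limma 3.58.1 with statmod 1.5.0, edgeR 4.0.16 and DESeq2 1.42.0 in R 4.3.3. Members and gene lists were chosen with earlier results of these data known. Named by rule were the 10 genes with the smallest p-values in each direction among those called without overlap, up to 4 called genes per list and direction (or 2 uncalled ones where no member was called), genes the study names, LUBAC genes and sort markers, and some genes that the rule names are not reported here. The 22 alternatives were other tests, scalings, filters, prior counts and blocks, no weights, only the 12 samples, Xist as a covariate and each mouse left out.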

Additional observations from a re-analysis of the deposited data

Results flagged for a closer look

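The genes named here stood out because the change between fractions itself differed between Sharpin cpdm and WT mice in limma's test of that difference (adjusted p-value under 0.05 over the 12798 genes). Values in brackets are the difference in change, Sharpin cpdm minus WT, in log2 units, with 3 mice per genotype.

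The more positive changes, in order of p-value, were those of Tspan32 (1.44), Nusap1 (1.41), Kansl1l (0.66), Gramd3 (0.87), Ccnb2 (1.23), Foxm1 (0.77), Arpp21 (0.95), Kif4 (1.56), Tbrg3 (1.92), Rag2 (1.70), Slbp (0.55), Rrm2 (1.01), Apobec3 (0.37), Gzma (1.81), Cd8a (0.44) and Mki67 (1.31). Further down the same order came Nfkbia (0.33), Apol7b (0.65), Birc3 (0.36), Clspn (0.79), Gnl3 (0.39), Tnrc6b (0.46), Pim1 (0.46), E2f2 (0.46), Traf1 (0.48), Nop56 (0.29), Myb (0.27), Kcnq1ot1 (0.81), Bcl2l11 (0.27), Nfkbie (0.38), Fasl (1.66) and Themis (0.24).

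The more negative changes were those of Dusp4 (-0.61), Ski (-0.42), Sh3bgrl2 (-1.73), Tbc1d4 (-0.57), Enc1 (-0.67), Frat1 (-0.52), Map2k2 (-0.36), Ptms (-0.49), Ahcyl2 (-0.31), Tspan9 (-0.49), Cd3e (-0.29), Trappc9 (-0.39), Mcat (-0.59), Rac2 (-0.29), Hk1 (-0.28), Ap2a2 (-0.26), Gnai2 (-0.26), Bcl2 (-0.26), Ndufc2 (-0.36), Lef1 (-0.29), Coro1a (-0.24), Pdcd1 (-0.32), Ifi27l2a (-0.58), Gatd1 (-0.31) and Ldhb (-0.30).

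For Cd163l1 (-2.32), Spatc1 (-3.10), 5830411N06Rik (2.11) and Btbd16 (-2.06) every sample of at least 1 group had at most 3 counts, so these fitted values depend on the prior count and are no bounds.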

How the results depend on the processing

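No called gene changed sign in an alternative that tested it, which the choice of genes largely fixes, since 270 of the 281 and 116 of the 119 had no overlap between the genotypes' mice. The count, 400 (281 more positive, 119 more negative), moved with the model. It was 253 without sample weights (184 and 69), 146 without a filter on low counts (117 and 29), 134 with DESeq2 without a block (105 and 29), 58 with Xist as a covariate (56 and 2) and 30 with edgeR's quasi-likelihood test without a block (26 and 4), and the causes were not tested. The mouse is the pairing of the design: without the replicate block 124 genes were called (102 and 22), with the mouse as a fixed replicate block 634 (387 and 247), with per-mouse differences 581 (364 and 217) and with the fixed block in edgeR 461 (300 and 161). The other scalings, filters and prior counts gave 368 to 501.

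Leaving out 1 mouse gave 104 to 496 genes, 85 to 276 more positive and 19 to 220 more negative. The counts were 496, 168 and 104 without WT mouse 1, 2 or 3 and 249, 197 and 121 without Sharpin cpdm mouse 1, 2 or 3. The share of calls in the positive direction was 70.2%, 86.7% in edgeR without a block, 96.6% with Xist, 55.6% without WT mouse 1, 82.3% without the block and 78.4% with DESeq2 without a block, and it was 80.1% without the filter and 80.7% to 81.8% without WT mouse 2 or 3 or Sharpin cpdm mouse 2 or 3. Tspan32, Nusap1, Kansl1l, Gramd3, Ccnb2, Foxm1, Arpp21, Rag2 and Slbp were among the genes called in all 22 alternatives. With 3 mice per genotype and the depth given above, the smallest differences called were 0.212 and -0.227 log2 units.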
